A study of Mus musculus with 20 samples.

Results

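Olfactory receptor genes (symbols starting with Olfr) encode G protein-coupled receptors that detect odorants. The set described here holds the probes for these genes that gave a signal above background in cultured mouse fibroblasts. A probe was a member if its accession maps in RefSeq to such a symbol and the scanner software gave it the mark for well above background on every array (5 of 5) in 1 or more of the 4 serum groups. This rule kept 100 of the 926 olfactory receptor probes, for 99 of 886 genes, out of 41174 probes on the array. The marks of all 4 groups chose the members, so their levels and the differences between groups are given as a description of near-background signal.

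Mouse embryonic fibroblasts (MEFs), connective tissue cells derived from embryos, were kept for 24 hours in serum that came from C3H/HeN females, and their total RNA was labelled with Cy3. Serum came from mice irradiated with 4 Gy in a 10-day set (4 Gy serum) and from non-irradiated mice of that set (10-day control serum). A 20-day set held serum of mice irradiated with 8 Gy (8 Gy serum) and of its own non-irradiated mice (20-day control serum). The irradiation regime is written as L/MDR, which the labels do not expand, and they do not say whether the days give the length of exposure or the delay before serum collection. Each group had 5 arrays, and the labels do not state separate cultures or donors for them, so a p-value here reflects array-to-array spread alone, which may be technical. All 12 fibroblast markers checked, among them Col1a1, Pdgfra and Vim, were well above background on all 20 arrays.

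In the nose, each sensory neuron is known to express a single olfactory receptor gene chosen from the many in the genome. The receptor signals through the G protein subunit Gnal, the adenylyl cyclase Adcy3 and a cyclic nucleotide-gated channel, and the other receptor genes stay packed in silent chromatin. Class I receptors, which resemble those of fish, lie in 1 cluster on chromosome 7, and class II receptors are spread over many chromosomes. A few receptors, such as Olfr78, Olfr544 and Olfr1393, have described roles outside the nose.

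Below are the start regions of 3 members, as RefSeq gives them for GRCm38.p6, each from 250 bases before to 50 bases after the annotated gene start. They were chosen because Olfr571 had the highest signal of the set, Olfr1537 the highest fitted difference between 4 Gy and control serum, and Olfr1226 the greatest fall between 8 Gy and control serum. All 3 lie on the minus strand, at chr7:102909788-102910087, chr9:39238382-39238681 and chr2:89193983-89194282, and are written 5′ to 3′ on that strand. In all 3 the annotated gene start is an ATG, so the windows lie around a start codon and may not hold the promoter. Capitals mark TAATTA, a core recognised by homeodomain factors such as Lhx2, which are known to act at receptor gene promoters.
Olfr571: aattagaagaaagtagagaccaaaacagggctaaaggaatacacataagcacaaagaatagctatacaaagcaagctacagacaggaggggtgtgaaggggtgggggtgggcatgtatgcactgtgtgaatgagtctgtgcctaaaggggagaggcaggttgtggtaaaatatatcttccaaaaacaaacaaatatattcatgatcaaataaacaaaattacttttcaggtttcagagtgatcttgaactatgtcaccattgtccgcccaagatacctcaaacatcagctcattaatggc
Olfr1537: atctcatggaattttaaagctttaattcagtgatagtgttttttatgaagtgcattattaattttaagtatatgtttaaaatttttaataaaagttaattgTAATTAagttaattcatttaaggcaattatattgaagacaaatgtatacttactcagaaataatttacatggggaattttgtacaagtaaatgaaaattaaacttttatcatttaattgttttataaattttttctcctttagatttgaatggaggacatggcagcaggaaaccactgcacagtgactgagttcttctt
Olfr1226: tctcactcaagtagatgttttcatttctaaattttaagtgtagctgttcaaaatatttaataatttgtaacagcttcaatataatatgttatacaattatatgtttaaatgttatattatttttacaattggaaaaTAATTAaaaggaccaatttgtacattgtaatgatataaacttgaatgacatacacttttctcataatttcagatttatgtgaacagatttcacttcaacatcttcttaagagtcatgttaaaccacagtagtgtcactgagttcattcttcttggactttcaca
Olfr1537 and Olfr1226 each held 1 TAATTA, and Olfr571 held 0. Windows were at hand for 82 of the 99 member genes (83 windows), and TAATTA, which reads the same on both strands, stood in 24.1% of them. It stood in 18.6% of the 948 windows of all olfactory receptor genes and in 5.29% of all 32851 windows. The motif TATAAA, sought on both strands and able to overlap the first, stood in 39.8% of member windows, 41.0% of olfactory receptor windows and 13.6% of all windows. The palindromic Ebf binding motif, sought with any base at its centre, was in 0 of the 83 member windows, 5 olfactory receptor windows and 0.904% of all windows. In 79 of the 99 member genes the annotated model spans a multiple of 3 bases, as a coding sequence alone would. The motif shares thus describe sequence around annotated starts and are not read as promoter content.

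Signal is the log2 processed intensity minus the log2 of the 75th percentile of the array, so a value of 0 is the level of that percentile and negative values lie below it. Most members were dim. Their means over 20 arrays ran between −6.88 and 0.46 with a median of −5.55, against a median of −1.02 for the 26233 probes that met the same rule over the whole array and were tested. Only Olfr571 had a mean above 0, 8 members had one of at least −4, and 69 lay below −5. The spread between arrays of 1 group was wide for probes this dim, with a median SD of 0.43 in the 4 Gy group and 0.46 in its control, against 0.14 and 0.11 for all probes tested. In the 8 Gy group the median SD was 0.43 and in its control 0.45, against 0.14 and 0.30 for all probes tested.

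Olfactory receptor probes met the rule less often than the rest of the array. The share was 10.8% for them, 9 of 133 (6.77%) for vomeronasal receptor probes, and 65.1% for the 40095 probes outside the chemosensory families. Of the 926 probes, 586 (63.3%) were marked on no array at all. Among members, the number of arrays with a mark ran between 6 and 20 with a median of 15, and 17 were marked on all 20 arrays. By group, 96 of the 926 met the rule with 4 Gy serum (10.4%) and 41 with its control (4.43%), 27 with 8 Gy serum (2.92%) and 39 with its control (4.21%). For the 40095 probes outside these families the shares were 62.9% and 61.5% in the 10-day set. They were 60.3% and 55.3% in the 20-day set, where the olfactory receptor share was lower with 8 Gy serum than with control serum. For 41 of the 100 members the 4 Gy group was the only one that let them in. The other receptor families were alike in this: 8 vomeronasal probes met the rule with 4 Gy serum and 3 with its control, and of 16 taste receptor probes 4 did so with 4 Gy serum and 0 with its control.

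**Figure D1:**
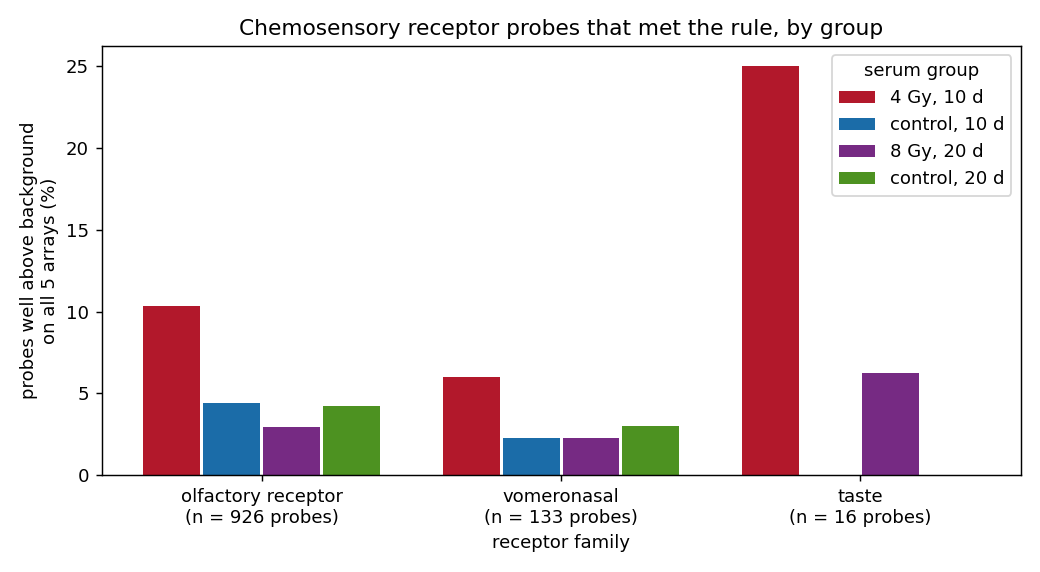
Share of probes (y axis, percent) well above background on all 5 arrays of a group, for the olfactory (926), vomeronasal (133) and taste (16) receptor probes; each bar is 1 serum group. The 4 Gy bars are the highest in each family, with 10.4% of olfactory and 6.02% of vomeronasal probes.

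The olfactory receptor probes marked on single arrays numbered 138, 151, 143, 180 and 187 in the 4 Gy group and 54, 89, 108, 116 and 125 in the 10-day control, so every 4 Gy array lay above every control array. Of all probes on the array, 63.0% to 67.2% were marked on 4 Gy arrays and 60.9% to 66.3% on these control arrays, which overlapped. Array 1 of the control had the fewest. It was also the 10-day control array with the widest spread of negative control spots (an SD of 17.7 intensity units, against 7.67 to 11.1 on the other 4), and its lowest marked signal was 22.2 units, against 11.1 to 15.1. Without that array 61 members, not 41, would have met the rule in the 10-day control, 11 of the added ones being among the 41 that entered through 4 Gy serum alone. With 8 Gy serum the olfactory receptor probes marked numbered 70, 66, 42, 81 and 60, against 61, 62, 80, 115 and 97 with 20-day control serum, and these ranges overlapped. Of all probes, 60.9% to 63.4% were marked on 8 Gy arrays and 56.8% to 64.1% on 20-day control arrays.

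The members just inside the rule were Olfr847, Olfr1339 and Olfr1093, whose means in the 4 Gy group were −6.12, −6.01 and −5.85. Just outside, 25 probes were marked on 4 of 5 arrays of their best group, and the brightest of them were Olfr123 (−4.97) and Olfr920 (−5.10) with 20-day control serum and Olfr577 (−5.29) with 4 Gy serum. The brightest probes outside thus had a higher mean than the dimmest inside.

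Olfr571, a class I receptor gene (chromosome 7, 102908869 to 102909837), was the brightest member and brighter than 78.4% of all probes on the array. Its signals were 1.75, 1.84, 1.59, 1.47 and 1.26 with 4 Gy serum and 1.33, 1.26, 0.86, 0.59 and 1.93 with 10-day control serum. In the 20-day set they were −0.55, −0.64, −0.62, 0.26 and 0.14 with 8 Gy serum and −0.80, −0.59, −1.12, −0.41 and −0.31 with 20-day control serum. Groups of 1 set overlapped, and every array of the 20-day set lay below every array of the 10-day set. The 20-day control mean was −0.65 ± 0.32, against 1.19 ± 0.51 in the 10-day control (SD, n = 5), a log2 difference of −1.84 ± 0.23 (SE, limma adjusted p = 1.04e-06). Neither irradiated serum passed this test against its control (4 Gy 0.39 ± 0.23, adjusted p = 0.362; 8 Gy 0.36 ± 0.23, adjusted p = 0.209). Adjusted p-values of members are printed only where the probe met the rule in both groups compared, as here.

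The next in level were Olfr63 (chromosome 17, mean −1.37), Olfr279 (chromosome 15, −2.16), Olfr744 (chromosome 14, −2.69), Olfr175 (chromosome 16, −3.15), Olfr462 (chromosome 11, −3.45), Olfr1410 (chromosome 1, −3.66), Olfr1153 and Olfr1065 (both chromosome 2, −3.98 and −4.03) and Olfr544 (chromosome 7, −4.08). These means are given per probe and do not rank the genes, since probes differ in how strongly they bind. Olfr63 had −1.10, −1.08, −0.48, −0.49 and −0.70 with 4 Gy serum, against −2.30, −2.20, −1.94, −2.15 and −0.96 with control serum. Control array 5 lay among the 4 Gy arrays and the other 4 controls below them all. Olfr1065 was the most even of these: its group means were −3.84 (4 Gy) and −3.87 (10-day control), −4.15 (8 Gy) and −4.26 (20-day control), with SDs of 0.12, 0.26, 0.19 and 0.20. There were 6 further probes for member genes, and 4 of them, for Olfr175, Olfr279, Olfr1036 and Olfr1497, were marked on 0 arrays, so the signal of those genes rests on 1 of the probes made for each.

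**Figure D2:**
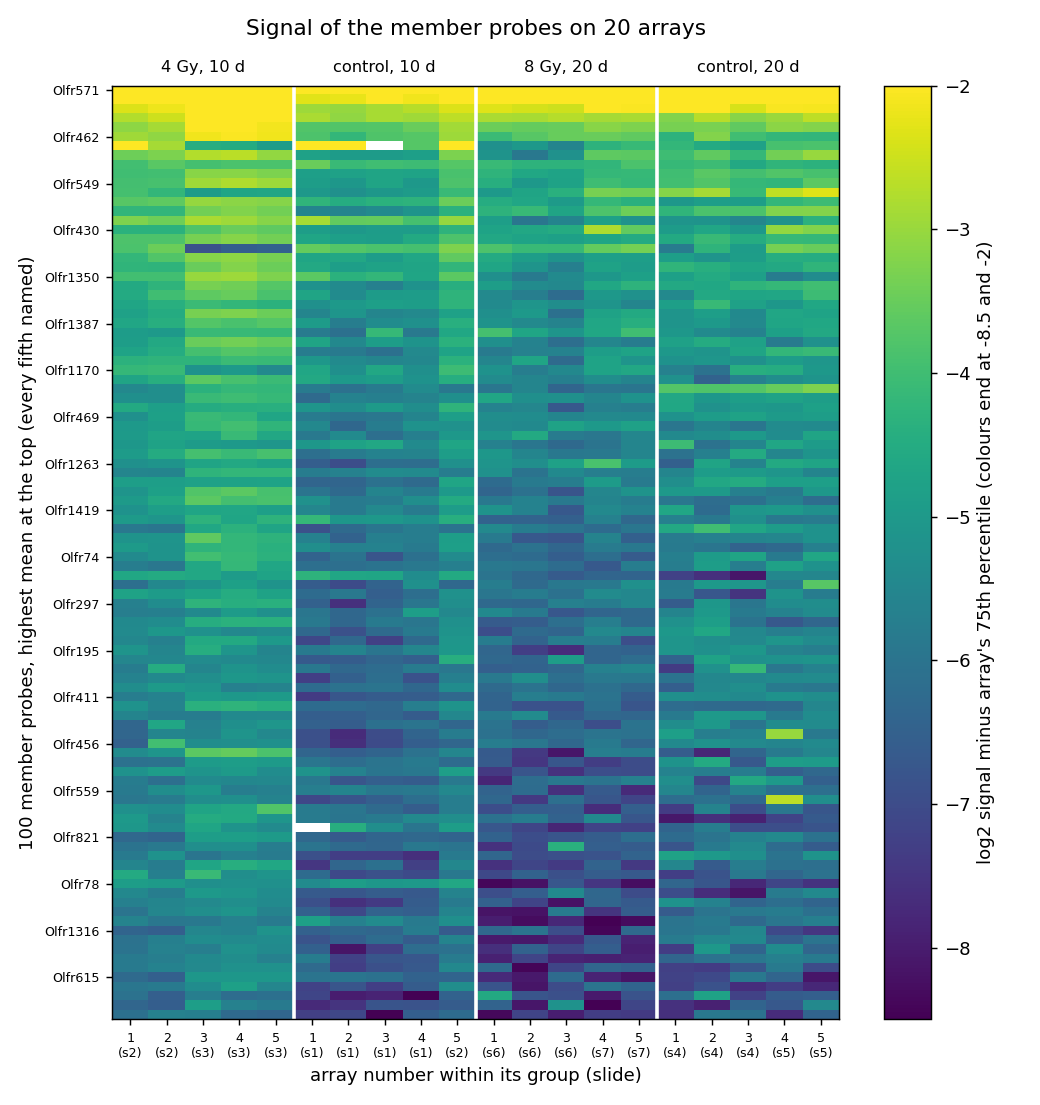
Signal (colour, log2 minus the 75th percentile of the array) of the 100 member probes (rows, highest mean at the top) on 20 arrays (columns, with slide numbers), by serum group; white cells are outlier spots left out. The 3 slide 3 arrays of the 4 Gy group and control array 5 on slide 2 stand out as brighter columns, and the lowest rows have group means down to −8.18 with 8 Gy serum.

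The arrays lay on 7 slides. Slide 1 held 10-day control arrays 1 to 4, slide 2 held 10-day control array 5 with 4 Gy arrays 1 and 2, and slide 3 held 4 Gy arrays 3 to 5. In the 20-day set, slides 6 and 7 held the 8 Gy arrays and slides 4 and 5 the controls, so slide 2 alone held both irradiated and control serum. The 2 sets were scanned at different times, so set and scan cannot be told apart.

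Member signal followed the slides. The median over members was −5.17 and −5.02 on 4 Gy arrays 1 and 2, and −4.57, −4.52 and −4.70 on 4 Gy arrays 3 to 5. It was −5.80, −5.96, −5.92 and −5.74 on control arrays 1 to 4 and −5.07 on control array 5. The 3 arrays of slide 2 thus lay close together whichever serum they had, with slide 3 above them and slide 1 below them. Between slides within 1 serum the members moved on balance by 0.55 in the 4 Gy group (slide 3 minus slide 2) and by 0.82 in the 10-day control (slide 2 minus slide 1), while the median over all probes tested moved by 0.01 and −0.01. Within slide 2, 4 Gy minus control, the median member difference was −0.07, and 41 of 100 members were higher.

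Counted by array, 70 members were higher on all slide 3 arrays than on both slide 2 arrays of the 4 Gy group, where 31.5% of all probes tested were. In the 10-day control 76 members were higher on array 5 than on all 4 arrays of slide 1, against 30.0% of all probes, and 3 were lower, against 29.9%. Within slide 2, 25 members had both 4 Gy arrays above the control array and 43 had both below, against 37.1% and 36.6% of all probes. For 61 members the 3 slide 3 arrays were the highest of the 10-day set, as for 20% of all probes tested.

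**Figure D3:**
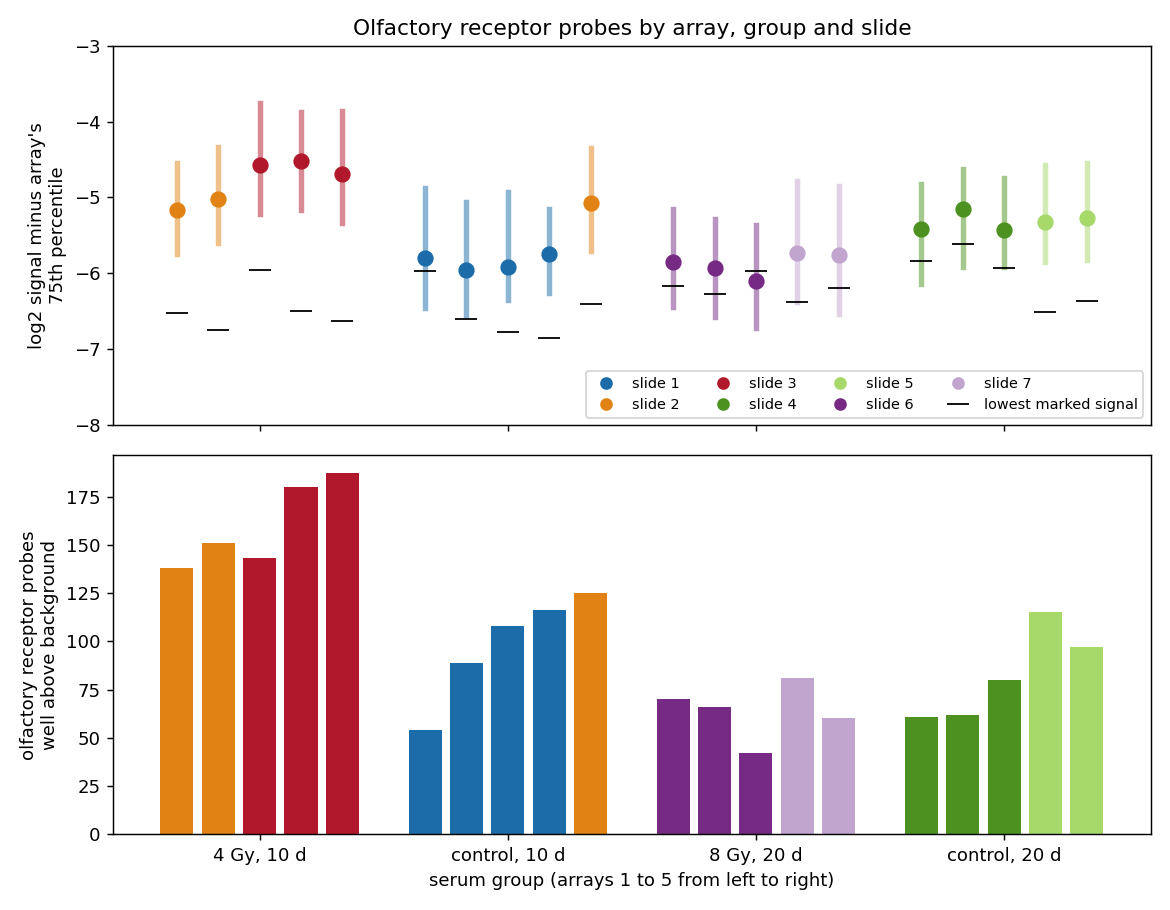
Upper panel: median (point) and interquartile range (bar) of the 100 member signals on each array (y axis, log2 minus the 75th percentile of the array), coloured by slide, with the lowest marked signal of the array as a dash. Lower panel: olfactory receptor probes marked well above background per array, between 42 and 187 of 926; slide 2 arrays of both serums have medians of −5.17, −5.02 and −5.07.

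The 20-day set showed smaller slide steps. Member medians were −5.86, −5.93 and −6.10 on slide 6 and −5.74 and −5.77 on slide 7 with 8 Gy serum. With 20-day control serum they were −5.42, −5.15 and −5.42 on slide 4 and −5.33 and −5.27 on slide 5. All 5 arrays with 8 Gy serum thus lay below all 5 control arrays. The median member step was 0.27 in the 8 Gy group (slide 7 minus slide 6) and 0.21 in its control (slide 5 minus slide 4), against −0.04 and −0.07 over all probes tested. In this set each slide held 1 serum only, so slide and serum were compared through a fit with slide as a random block and not within a slide.

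The comparison of 4 Gy with control serum of the 10-day set asked how serum of irradiated mice acts on fibroblasts. The fit across all probes called 48 members higher and 0 lower (limma, adjusted p under 0.05), where 3.85% of all 26231 probes fitted were called higher and 1.40% lower. The median log2 difference was 0.96 over members and −0.001 over all probes tested, and 94 members had a positive one. Of 7 macrophage markers 2 were called higher as well (Lyz2 by 0.55 and Cd14 by 0.36), with a summed level of 0.63 to 0.94 with 4 Gy serum and 0.22 to 0.72 with control serum, and their part in the result was not tested. Because 41 members entered through the 4 Gy group alone, the count of 48 members is a description and was not read as a finding. With slide as a fixed block 0 members were called (median difference −0.07), and with slide as a random block also 0 (median 0.64, consensus correlation 0.354). Without slide 1, and likewise without slide 3, 0 were called, while 66 higher and 2 lower were called without slide 2, the only slide with both serums. Leaving out single 4 Gy arrays gave 10 called members without array 3, 3 without array 4 and 18 without array 5, and leaving out single control arrays 1 to 4 gave 25, 14, 25 and 29. The shares over all probes are not set beside these counts, so nothing about the members is read from them.

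Of the 39 members that met the rule in both the 4 Gy and the 10-day control group, 21 were called higher and 0 lower, against 3.06% and 1.42% of the 24353 such probes. With only the probes marked on all 20 arrays fitted, 12 of 17 members were called higher and 0 lower, against 2.97% and 1.56% of the 21489 such probes. Olfr1342 (chromosome 4, 118689152 to 118693034) had −4.22, −4.22, −3.37, −3.23 and −3.38 with 4 Gy serum and −5.57, −5.56, −5.39, −5.14 and −4.34 with control serum. The groups did not overlap, yet control array 5 differed by only 0.12 from the mean of the 4 Gy arrays of its slide. The log2 difference was 1.51 ± 0.29 (SE, limma adjusted p = 0.0118), and it missed the threshold with slide as a block, like all other members and nearly all probes tested. Olfr544 (chromosome 7, 102484114 to 102488307), a receptor for azelaic acid described in fat and liver, had −4.0, −3.98, −3.17, −3.16 and −3.28 with 4 Gy serum and −4.84, −4.78, −4.69, −4.72 and −3.86 with control serum. Its log2 difference was 1.06 ± 0.20 (adjusted p = 0.0118), and −0.13 within slide 2. Olfr279 followed the same order of slides, at −2.33 and −2.15 on slide 2, −1.09, −1.04 and −1.16 on slide 3, and −2.96, −3.04, −2.85 and −2.70 on slide 1, with −2.35 for the control on slide 2.

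**Figure D4:**
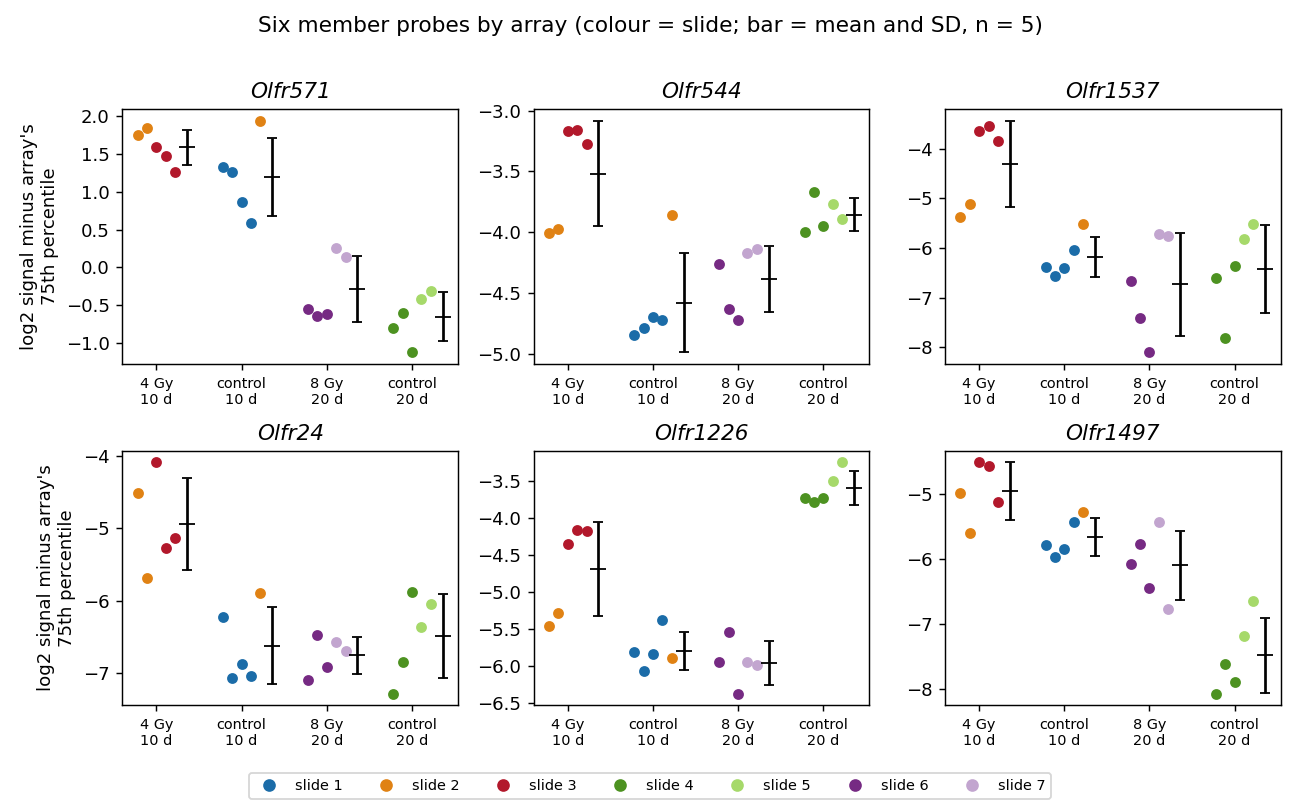
Signal (y axis, log2 minus the 75th percentile of the array) of 6 member probes on each array, by serum group (x axis) and slide (colour); black bars are mean and SD (n = 5 arrays). Olfr544 and Olfr1537 step up between slides 1 and 2 within control serum and between slides 2 and 3 within 4 Gy serum. Olfr1226 lies between −3.79 and −3.25 on the 20-day control arrays, above all 8 Gy arrays.

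The 6 members with the highest fitted difference among those called were Olfr1537 (1.88), Olfr24 (1.68), 1 of the 2 member probes of Olfr456 (1.64), Olfr74 (1.55), Olfr297 and Olfr978 (1.53 each). None of them met the rule in the 10-day control. Olfr1537 (chromosome 9, 39237487 to 39238431), whose start region is printed above, had −5.37, −5.12, −3.65, −3.55 and −3.84 with 4 Gy serum. With control serum it had −6.38, −6.56, −6.40, −6.04 and −5.53, so the step between slides 2 and 3 within the 4 Gy group exceeded the 0.28 between serums on slide 2. Olfr24 (chromosome 9, 18754692 to 18755633) departed from this order: it had −4.52, −5.69, −4.09, −5.28 and −5.13 with 4 Gy serum, against −6.23, −7.07, −6.88, −7.03 and −5.89 with control serum. The groups did not overlap, as for 16 members in all, where 4.15% of all probes tested had 4 Gy arrays all above the controls (0 members and 4.17% of probes had them all below), and within slide 2 the difference was 0.78. Olfr24 was marked on 5 of 5 arrays with 4 Gy serum, 1 of 5 with control serum and 0 of 10 in the 20-day set.

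Olfr456 (chromosome 6, 42486163 to 42487214) had 2 member probes, with differences of 1.64 and 0.73 between 4 Gy and control serum, and only the first was called. The first probe had −6.48, −3.98, −5.31, −5.28 and −5.24 with 4 Gy serum, against −6.91, −7.61, −7.03, −6.57 and −6.35 with control serum. Array 2 lay well above the other 4 there, while the second probe had −5.76 on that array, within its group's range of −5.76 to −5.40.

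A few members ran the other way. Olfr697 (chromosome 7, 106740905 to 106741956) had −3.83 and −3.45 on the slide 2 arrays with 4 Gy serum but −6.87, −6.55 and −6.46 on slide 3, where it was not marked. Its control arrays had −3.53, −3.74, −3.84, −3.91 and −3.25, so the low values belonged to slide 3 alone. Olfr1410 (chromosome 1, 92607839 to 92608807) scattered widely, with −1.77, −2.89, −4.45, −4.49 and −4.90 in the 4 Gy group and −0.02, −0.19, −3.71 and −1.54 on the 4 control arrays that measured it. Olfr1232 (chromosome 2) had group means of −5.78 ± 0.15 with 4 Gy serum and −5.39 ± 0.40 with control serum (SD, n = 5), and the groups overlapped. None of the 3 was called, and they were the 3 lowest by p among the 6 members with a negative difference.

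**Figure D5:**
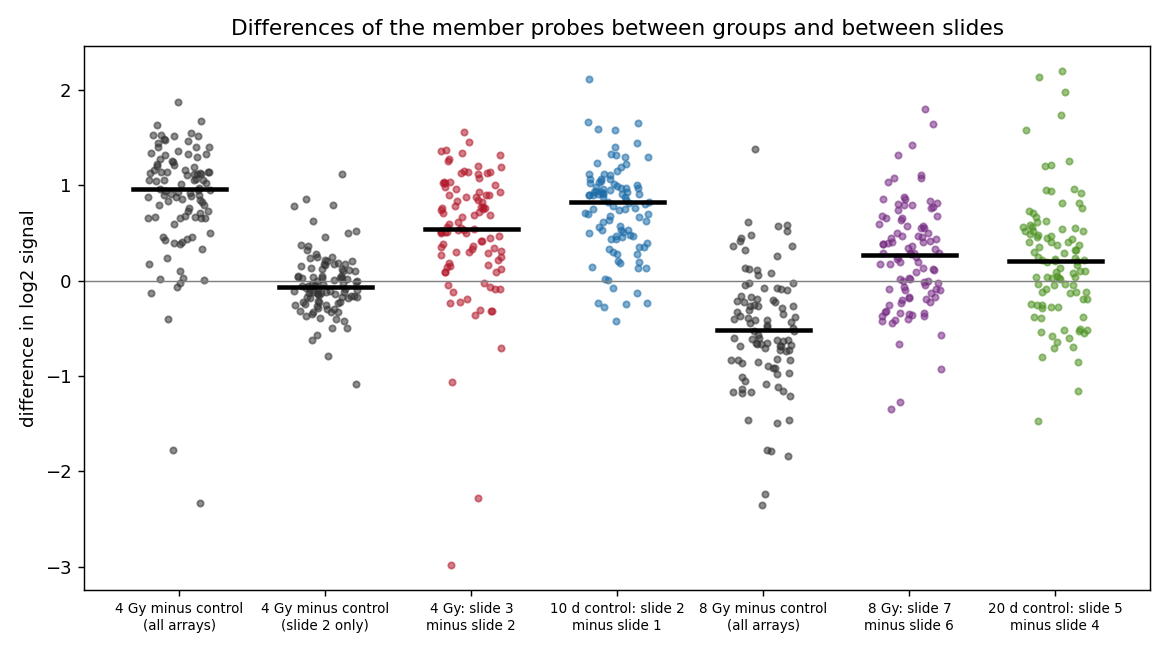
Difference in log2 signal (y axis) of each of the 100 member probes (points, spread sideways for legibility) with the median (black line), for serum comparisons over all arrays, for 4 Gy minus control on slide 2 alone, and for slide steps within 1 serum. The median is 0.96 for 4 Gy minus control over all arrays, −0.07 on slide 2, 0.55 and 0.82 for the slide steps of the 10-day set, and −0.51 for 8 Gy minus control.

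In the 20-day set, 8 Gy against control serum, 2 members were called higher and 34 lower, where 20.6% of all probes fitted were called higher and 27.4% lower. The median difference was −0.51 over members and −0.06 over all probes. With slide as a random block 1 was called higher and 13 lower, and after normexp background correction 0 higher and 1 lower (median −0.10). Without slide 6 the counts were 3 and 17, and without slide 4 they were 0 and 23. All-probe shares for these settings are not set beside them, so the counts describe dependence on the setting and no trait of the members. For 17 members no 8 Gy array was marked while at least 1 control array was, and for 3 members the reverse held, so the difference is only bounded there. With those 20 members at their bounds the median was −0.34 over the 94 members marked in either group. The arrays of 20 members did not overlap, all lower with 8 Gy serum, where 18.1% of all probes were. Macrophage markers were high in this set, and 3 of the 7 measured were called lower with 8 Gy serum and 0 higher. Of those not called, Csf1r (0.27) and Fcer1g (0.10) had a positive log2 difference, and Lyz2 (−0.05) and Cd14 (−0.16) a negative one. Ptprc ran between 0.16 and 0.35 with 8 Gy serum and between 0.69 and 0.99 with control serum, Adgre1 between 2.84 and 3.10 and between 3.65 and 3.87, and Tyrobp between 2.45 and 3.10 and between 3.24 and 3.72, none of them overlapping. The Adgre1 range with control serum rests on 3 of 5 arrays, since its outlier spots were left out on the others. The summed level of all 7 did overlap, at 4.88 to 5.16 with 8 Gy serum and 4.84 to 5.50 with control serum, and the part of these markers in the result was not tested.

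Olfr1226 (chromosome 2, 89193100 to 89194032), whose start region is printed above, had the largest fitted fall. It had −5.94, −5.54, −6.37, −5.94 and −5.98 with 8 Gy serum, 2 of these arrays marked, and −3.73, −3.79, −3.73, −3.50 and −3.25 with control serum, all marked. The groups lay far apart, by a log2 difference of −2.35 ± 0.23 (SE). In the 10-day set its values were −5.46, −5.29, −4.35, −4.16 and −4.19 with 4 Gy serum and −5.81, −6.07, −5.84, −5.38 and −5.90 with control serum, so the 20-day control arrays were the highest of all 20.

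The other 5 of the 6 lowest members had no marked array with 8 Gy serum, so each fold is a lower bound. The bound sets the control mean against the higher of the signal and the lowest marked signal on each 8 Gy array. Olfr1215 was at least 1.93-fold lower (means −7.03 with 8 Gy serum and −5.25 with control serum) and Olfr195 at least 1.81-fold (−6.83 and −5.34). Olfr1306 was at least 1.29-fold lower (−7.67 and −5.84), Olfr1232 at least 1.2-fold (−8.18 and −5.94) and Olfr483 at least 1.17-fold (−7.74 and −5.97). Olfr1215, Olfr1226, Olfr1218 and Olfr1232 lie within the same cluster on chromosome 2. That cluster (85330967 to 90401674) holds 175 olfactory receptor genes with a probe, of which 19 are members and 10 were called lower with 8 Gy serum, where 34 of all 100 members and 27.4% of all probes were.

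The 2 members called higher were Olfr1497 and Olfr124. Olfr1497 (chromosome 19, 13794665 to 13795609) had −6.08, −5.76, −6.45, −5.43 and −6.77 with 8 Gy serum, 2 of them marked, and −8.08, −7.61, −7.90, −7.18 and −6.65 with control serum, none marked. The bound was under 1, so no fold is given. Olfr124 (chromosome 17) had means of −5.06 ± 0.31 with 8 Gy serum and −5.65 ± 0.29 with control serum (SD, n = 5), and the groups overlapped.

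Of the 20 members that met the rule in both groups of the 20-day set, 0 were called higher and 4 lower, against 19.3% and 30.5% of the 21954 such probes. These were Olfr187, Olfr319, Olfr1131 and Olfr544, of which Olfr319 and Olfr1131 are named after their values were seen. With only the probes marked on all arrays fitted, 0 of 17 members were called higher and 3 lower, against 20.1% and 31.7% of such probes. Olfr187 (chromosome 16) had −5.0, −4.69, −4.37, −3.34 and −3.39 with 8 Gy serum and −3.18, −2.87, −4.12, −2.62 and −2.33 with control serum, a difference of −1.13 ± 0.35 (SE, limma adjusted p = 0.0121). Within the 8 Gy group its slide 7 arrays stood above its slide 6 arrays. Olfr544 had −4.26, −4.63, −4.72, −4.17 and −4.14 with 8 Gy serum and −4.0, −3.67, −3.95, −3.77 and −3.89 with control serum, without overlap, a difference of −0.53 ± 0.20 (adjusted p = 0.0361).

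The difference between the responses, 8 Gy in the 20-day set minus 4 Gy in the 10-day set, was called positive for 1 member and negative for 66, where 15.3% and 21.1% of all probes were. Its median was −1.46 over members and −0.07 over all probes. With slide as a random block it was called for 28 members, all negative, and without slide 1 for 10. Without the shares over all probes in those fits, these counts are not read as a result about the members. Of the 48 members called higher with 4 Gy serum, 16 were also called lower with 8 Gy serum, which is 33.3% of those 48 and 47.1% of the 34 called lower. Among all 100 members 34 were called lower and 48 higher, so both shares lay close to those of the whole set.

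The 20-day control was set against the 10-day control to see how the sets differ without irradiation. It had 30 members called higher and 14 lower, where 35.5% of all probes fitted were called higher and 32.3% lower. Among probes with 20-array means below −6, from −6 to −5 and from −5 to −4, 18.6%, 21.6% and 26.2% were called higher. Called lower were 43.5%, 33.6% and 36.9%. At those levels 4 of 25, 18 of 44 and 6 of 23 members were called higher, and 4, 5 and 3 lower. Of the 24 members that met the rule in both controls, 7 were called higher and 2 lower, against 38.9% and 30.1% of such probes, and with only the probes on all arrays fitted, 7 and 2 of 17 members were, against 39.3% and 30.7% of such probes. Without slide 1 the split was 2 higher and 18 lower, and with slide as a random block 9 and 12, while normexp correction gave 77 and 3. With the 75th percentile taken over probes marked on all 20 arrays it was 21 and 17. Under that percentile the calls over all probes also shifted towards lower, and these splits are not read as a trait of the members. The median member signal per array was higher in the 20-day control by 0.38, and lower by 0.15 (a difference of −0.15) before any scaling between arrays. All 7 macrophage markers measured were called higher in the 20-day control, with a summed level of 4.84 to 5.50 against 0.22 to 0.72 in the 10-day control, and their part in the member differences was not tested. In RNA of a whole culture, more cells of a type and more RNA per cell cannot be told apart.

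Beside Olfr571, the members with the greatest called falls in the 20-day control relative to the 10-day control were Olfr1410, Olfr78, Olfr1441, Olfr1497 and Olfr1048. Olfr78 (chromosome 7, 102740721 to 102759471), a receptor for short-chain fatty acids described in kidney and carotid body, was marked on every array of the 10-day set and on none of the 20-day set. It had −6.35, −6.77, −7.78, −7.15 and −7.55 with 20-day control serum and −5.36, −4.89, −5.07, −4.97 and −4.60 with 10-day control serum, at least 2.11-fold lower. It had −4.89, −4.96, −5.27, −5.20 and −5.24 with 4 Gy serum, so it moved by −0.31 between slides 2 and 3 in the 4 Gy group and by 0.47 between slides 1 and 2 in the control. Olfr1048 and Olfr1441 had means of −5.06 and −6.79 in the 20-day control, against −3.37 and −4.70 in the 10-day control. Olfr1497 was at least 1.31-fold lower.

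The members with the greatest called rises in the 20-day control relative to the 10-day control were Olfr1226 (2.20), Olfr187 (1.85), Olfr1218 and Olfr635 (1.75 each), Olfr1342 (1.53) and Olfr524 (1.51). Olfr187 and Olfr1342 met the rule in both controls, with adjusted p-values of 0.000119 and 0.000108 (limma). Olfr1218 rested partly on 20-day control array 4, at −3.0, while the other 4 lay between −5.87 and −4.83. Olfr524 had means of −4.67 ± 0.44 in the 20-day control and −6.18 ± 0.43 in the 10-day control (SD, n = 5). Its model overlaps that of Cd163l1, the only such overlap with a gene outside the family among the 99 member genes, so the source of its signal is uncertain.

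Members were spread over the receptor clusters. Chromosome 7 held 26 of 196 olfactory receptor genes on the array (13.3%), chromosome 2 held 23 of 232 (9.91%), chromosome 9 held 11 of 109 (10.1%) and chromosome 11 held 10 of 57 (17.5%). The class I cluster on chromosome 7 (102476773 to 105369317) held 14 member genes of 106 on the array, among them Olfr571, Olfr544, Olfr549, Olfr78 and Olfr635. Of these 14, 8 were called higher with 4 Gy serum, where 48 of all 100 members and 3.85% of all probes were, and 5 lower with 8 Gy serum, where 34 of 100 members and 27.4% of all probes were.

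Of 11 receptors listed for roles outside the nose, 10 had a probe and 3 had a member probe: Olfr544, Olfr78 and Olfr1393. Olfr1393 (chromosome 11, 49263873 to 49292359), described in kidney tubules, had means of −5.35 ± 0.50 with 4 Gy serum and −6.32 ± 0.67 with 10-day control serum, and −5.80 ± 0.37 with 8 Gy serum and −5.07 ± 0.85 with 20-day control serum (SD, n = 5). Its groups overlapped in both sets, and its other probe was marked on 1 array of 20. Olfr558, Olfr16, Olfr2, Olfr691 and Olfr90 were marked on 0 arrays, and Olfr920, among the probes just outside the rule, on 13.

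Of 19 genes listed for olfactory signalling in sensory neurons, 17 had a probe, 10 met the rule and were tested, and 6 were marked on all 20 arrays. Omp, the marker of mature sensory neurons, Ano2, a chloride channel, and Rtp2, which carries receptors to the cell surface, were each marked on 1 array of 20, and Rtp1 and Stoml3 on 0. Gnal was marked on 1 array by its best probe. Genes used in many tissues were measured on all arrays: Gnb1, a G protein subunit, had a mean of 4.37 with 4 Gy serum and 4.56 with its control, and Ric8b, which supports Gnal, lay at −0.08 and −0.04. With 4 Gy serum 1 gene of this list was called higher and 0 lower, and with 8 Gy serum 1 higher (Adcy3) and 2 lower (Ric8b and Pde1c). Of all probes fitted, 3.85% were called higher and 1.40% lower with 4 Gy serum, and 20.6% and 27.4% with 8 Gy serum.

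Cnga2, a subunit of the channel opened by cyclic AMP, was the gene called with 4 Gy serum. Its means were −4.24 with 4 Gy serum and −5.10 with control serum, a difference of 0.86 (limma adjusted p = 0.0187), in the same direction as most members. With slide as a random block this call was lost, since 0 of the 26233 probes were called higher. Of the 15 genes listed for receptor gene choice, all were tested. With 4 Gy serum 0 were called by limma, and with 8 Gy serum 1 was called higher (Ldb1, a partner of Lhx2) and 8 lower, among them Lhx2, whose means were 0.24 with 8 Gy serum and 0.93 with control serum. With 8 Gy serum 20.6% of all probes fitted were called higher and 27.4% lower. Of these 15 genes 14 were marked on all 20 arrays, and 20.1% and 31.7% of such probes were called. Sustentacular cell markers of the olfactory epithelium gave 0 tested genes of the 3 with a probe, and of 12 sensory neuron markers 4 were tested: Adcy3, Cnga2, Gng13 and Gap43.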

How the data were processed

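Fibroblast RNA was measured on 20 one-colour arrays, 5 in each of 4 serum groups. Intensity values and the 0 or 1 quality marks per spot were made by the authors with Agilent Feature Extraction (10.5.1.1 per the file headers, 11.0 per the submitters' processing notes), and the processed intensity is background-subtracted but not scaled between arrays. The deposited value table holds log2 values that behave as scaled to the 75th percentile, floored and centred per probe within each set; its own scale and direction are not stated, and it served as an alternative.

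Control spots and outlier spots were left out, spots of a probe were averaged, and log2 intensity minus the log2 of the array's 75th percentile was tested for the 26233 probes that carried the mark for well above background on every array of 1 or more groups. One fit of 4 group means was made with limma 3.58.1 (R 4.3.3), with Benjamini-Hochberg adjustment over all tested probes and a threshold of 0.05. It was also run on simulated data with independent arrays and no slide effect, which cannot show how it behaves under slide steps. Normexp (offset 50) used median spot and background intensities. Accessions were named, and positions and start regions taken, from RefSeq GRCm38.p6. The processed intensity of array spots has limited precision near background, and the number of arrays limits the rest.

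Members named are the 10 brightest, the 10 brightest among those marked on all 20 arrays, the 6 highest and 6 lowest called changes per comparison (or the 3 with the smallest p), genes with several member probes, receptors with a described role outside the nose, and probes just inside and outside the rule. The members and lists were chosen with earlier results of these data known. Same-numbered arrays deviated together in the 20-day set (correlations of 0.13 to 0.40 for the 5 numbers). In both of its groups arrays 1 to 3 lay on 1 slide and arrays 4 and 5 on another, so these correlations do not establish pairing. In the 10-day set they ran between −0.05 and 0.17. The main fit used no pairing, and the replicate number was a block only in an alternative. Alternatives were other scalings, background corrections, filters, slide and replicate blocks, and fits without each array or, chosen after seeing the data, without each slide.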

Additional observations from a re-analysis of the deposited data

Results flagged for a closer look

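Single arrays stood apart from the other 4 of their group for 11 of 156 combinations of a named member and a group, where chance gives about 1 in 20. Array 5 of the 10-day control, the one on slide 2, accounted for 6 of them, always above the others. It had −0.96 for Olfr63 (others −2.30 to −1.94), −3.29 for Olfr1153 (−4.94 to −4.79), −3.86 for Olfr544 (−4.84 to −4.69) and −3.81 for Olfr549 (−5.06 to −4.71). For Olfr187 it had −4.10 (−5.25 to −4.92) and for the second probe of Olfr456 −5.50 (−6.62 to −6.35). Its median over all members, −5.07, also lay above the other 4 (−5.96 to −5.74), as did that over the 17 members marked on all arrays, at −3.71 (−4.69 to −4.56).

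The rest were scattered over the 20-day set. With 8 Gy serum, array 3 had −2.73 for Olfr744 (others −2.87 to −2.83), array 4 had −6.70 for Olfr1306 (−8.07 to −7.71) and array 2 had −7.17 for Olfr483 (−7.93 to −7.84), the last pair of values not being marked as well above background. With 20-day control serum, array 2 had −3.20 for Olfr462 (−4.31 to −4.01) and array 3 an unmarked −6.72 for Olfr1215 (−5.16 to −4.53).

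The response to 8 Gy serum in the 20-day set differed from that to 4 Gy serum in the 10-day set for 27 of 39 named member probes by the limma fit, where 15.3% of all probes were called positive and 21.1% negative. The named probes were partly picked as the greatest changes in these comparisons, so this count is partly set by that choice and nothing is read from it. With slide as a random block 28 of all 100 members were called, against 67 without it. The log2 difference of the responses was negative for Olfr63 (−1.17), Olfr279 (−1.43), Olfr175 (−1.22), Olfr1153 (−2.59), Olfr544 (−1.59), Olfr549 (−1.93), Olfr187 (−1.54), Olfr1537 (−2.19), Olfr24 (−1.94), Olfr74 (−2.72), Olfr297 (−1.79), Olfr978 (−2.70), Olfr1232 (−1.84), Olfr1226 (−3.46), Olfr1306 (−2.63), Olfr1215 (−2.45), Olfr483 (−2.65), Olfr195 (−1.92), Olfr1218 (−2.25), Olfr635 (−2.76), Olfr1342 (−1.91), Olfr524 (−2.28), Olfr1393 (−1.70) and Olfr1339 (−2.03). It was −2.27 for the first and −1.42 for the second member probe of Olfr456. It was positive only for Olfr697 (2.36), the member that was low on slide 3. Dose, set and scan differ together here and cannot be told apart.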

How the results depend on the processing

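The count of called members moved with slide and with background correction. For 4 Gy against control serum it was 48 of 100, 0 with slide as a random or a fixed block, 0 without slide 1 and 0 without slide 3. Over all probes these 4 slide settings called at most 1 higher and 19 lower. It was 12 of the 17 members marked on all 20 arrays. For 8 Gy against control serum it was 36, 14 with slide as a random block, 1 after normexp correction, 23 without slide 4, 20 without slide 6 and 3 of the 17 members on all arrays. For 20-day against 10-day control serum it was 44, 80 after normexp, 21 with the random block, 20 without slide 1 and 9 of the 17 on all arrays. For the difference between responses it was 67, 28 with the random block, 10 without slide 1, 41 without slide 3 and 12 of the 17 on all arrays. Leaving out 1 array gave 3 to 56, 28 to 41, 35 to 48 and 63 to 72 for these 4 counts in turn. Shares over all probes are not given for most of these settings, so the counts describe the processing and no trait of the members.

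The median member signal differed by 0.90 between 4 Gy and control serum (0.42 after normexp; 0.83 to 1.06 without 1 array). It differed by −0.56 between 8 Gy and control serum (−0.090 after normexp, −0.70 with array-median scaling, −0.27 over members on all arrays; −0.60 to −0.51 without 1 array). Between the controls it was 0.38 (0.32 to 0.54 without 1 array) and −0.15 with no scaling. The members of the olfactory receptor set would number 255 with the laxer mark for a positive and significant signal and 17 with all 20 arrays. The share of probes above background by gene family would be 27.5% and 1.84% for olfactory receptors, and 13.5% with 4 of 5 arrays. With the replicate number as a block, which treats same-numbered arrays as pairs though pairing is not established, the counts were 51, 41, 48 and 74 in the same order. No call of a named member was lost. For 8 Gy against control serum, 20-day set, the fit called 5409 probes higher and 7188 lower, 3808 and 9916 with array-median scaling, and 7335 and 4819 with the percentile over probes marked on all arrays. For 4 Gy against control serum, 10-day set, it called 1011 and 366, 809 and 670 with array-median scaling, and 954 and 656 with quantile normalization. For 20-day against 10-day control serum it called 9300 and 8478, and 7330 and 10645 with that percentile. For the difference between the 8 Gy (20-day) and 4 Gy (10-day) responses it called 4010 and 5532, and 5378 and 3799 with that percentile. Array-median scaling moved the median of all probes to −0.20 for 8 Gy serum and 0.15 between the controls.

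Of the values for single named members, 1027 kept direction and side of the threshold, 80 lost the call, 18 gained it and 5 turned sign: Olfr297 (−0.22) and Olfr978 (−0.16) with slide as a fixed block, Olfr697 (0.014) without slide 3, Olfr1232 (0.040, 4 Gy) and Olfr1497 (0.22, controls) after normexp. The cause was not tested. Signals this close to background limit every value here.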
